A study of Mus musculus with 4 samples.

Results

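A set of 8 SOX transcription factor genes was followed in 4 mouse mammary tumours: Sox8, Sox9 and Sox10 (group E), Sox4, Sox11 and Sox12 (group C), and Sox6 and Sox13 (group D). They were taken by symbol, through the Ensembl identifier and the GENCODE M21 annotation, and make up 8 of the 51826 genes in the count table. All 8 matched, and all 8 passed the filter on low counts. Every tumour carried the C3-T transgene. The tumours were Elf5+/+ (WT, n = 2) or Elf5+/- (HET, n = 2), so the comparison concerns partial loss of Elf5, an ETS transcription factor of the alveolar lineage. Which promoter drives the transgene, and the animals' age and sex, were not known from these sources. Tumour cells were enriched by a sort with antibodies to CD45, CD31 and TER119. The titles of both HET libraries open with the same number and may name tumours of 1 animal, and p-values measure the spread between these samples only, which may be technical.

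SOX proteins bind DNA through an HMG box, a domain that sits in the minor groove and bends the helix, and they usually act with partner factors. Group E proteins dimerise and activate transcription, and are best known from neural crest, glia and cartilage; in the mammary gland Sox9 and Sox10 mark progenitor and basal epithelial cells. Group C proteins are activators of progenitor and embryonic cells, whereas group D proteins have no known activation domain and dimerise through a coiled coil, with Sox6 acting beside Sox9 in cartilage.

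Library totals ran from 12695132 to 15307939 counts. Elf5 itself stood at 35.6 CPM (counts scaled to library size with TMM factors) for WT 1, 4.70 for the library labelled WT 2, and 5.39 (HET 1) and 10.6 (HET 2) for the HET tumours. Its log2 fold change, HET over WT, was -1.33 ± 0.92 (SE; edgeR's adjusted p = 0.986). Elf5 in the library labelled WT 2 was thus below both HET libraries, and every direction below rests on that label. That library also stood apart in the share of genes with no count, 44.5% against 29.9% to 31.3%, in fibroblast markers, which summed to 23795.3 CPM against 4705.0 to 7703.3, and in leukocyte markers, at 28.1 CPM against 359.0 to 478.3. In such bulk samples, fewer cells of a type and less RNA per cell cannot be told apart.

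Sox9, Sox4 and Sox10 supplied most SOX transcript in every tumour. Scaled to exon length, these 3 genes made up 92.1% of the level summed over the 8 members for WT 1 and 92.9% for the library labelled WT 2, against 93.6% (HET 1) and 91.8% (HET 2). Their median levels were 111.9 CPM per kb for Sox9, 61.6 for Sox4 and 43.5 for Sox10, at percentiles 98.6, 97.3 and 96.1 of the protein-coding genes tested. The other members followed with medians of 6.02 CPM per kb for Sox11, 4.21 for Sox13 and 3.44 for Sox12. Sox8 came next at 3.33 (3.46 by its longest transcript, just above Sox12). Sox6 had a median of 0.779 (1.33 by its longest transcript, still the lowest). In this order a single step was clear of the spread: Sox10 at its lowest, 18.5 CPM per kb, was above Sox11 at its highest, 10.2 CPM per kb. All other neighbours in the order overlapped in range, although Sox4 was above Sox10 in 4 of 4 libraries.

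Group E held the larger share of the summed level per length in each tumour, at 59.2% for WT 1, 68.8% for the library labelled WT 2, and 76.6% and 65.8% for HET 1 and HET 2. Group C held 39.3%, 29.6%, 20.8% and 31.6% in the same order. The group C share therefore overlapped between genotypes, while group D took 1.51% and 1.52% in WT and 2.60% and 2.59% in HET. Within group D, Sox13 was higher in both HET libraries and Sox6 overlapped between genotypes. These shares were not tested.

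**Figure D1:**
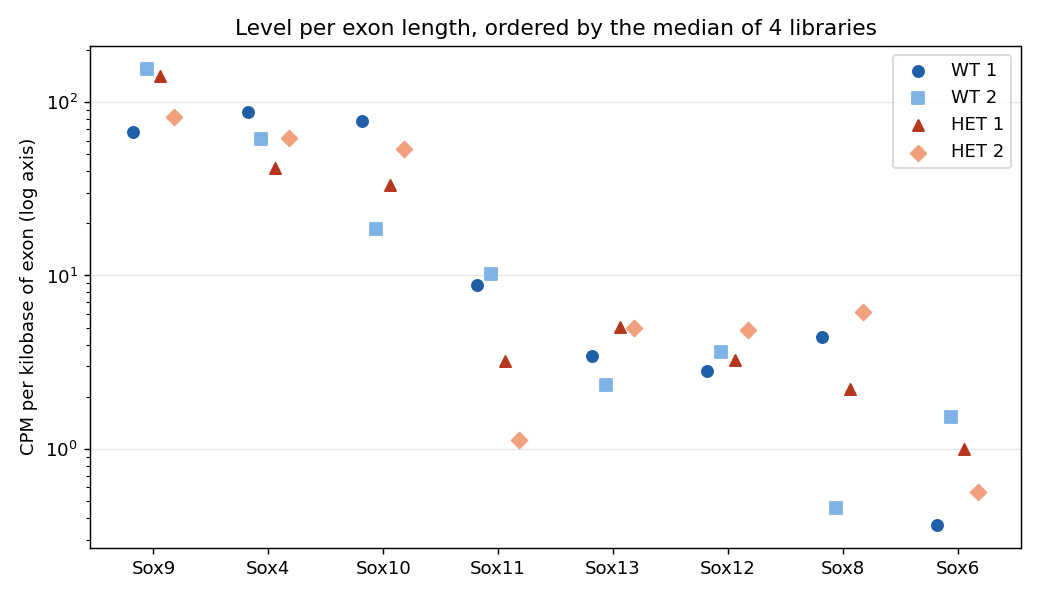
Level of each SOX gene in CPM per kilobase of exon (log axis), 1 symbol per library, with genes ordered by the median of the 4 libraries. Sox9, Sox4 and Sox10 lie between 18.5 and 155.6 CPM per kb, and the other 5 genes lie at or below 10.2.

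Of all 8 members, Sox11 showed the widest gap between genotypes. Sox11 (chromosome 12, 27334264 to 27342574, GRCm38, minus strand) is a single-exon gene of embryonic and neural progenitors. It stood at 73.3 CPM for WT 1, 84.7 for the library labelled WT 2, and 26.9 (HET 1) and 9.42 (HET 2) for the HET tumours. Both WT libraries were high and close to each other, both HET libraries were lower, and HET 2 was the lowest. HET over WT, the log2 fold change came to -2.12 ± 0.52 (SE, with n = 2 in each genotype), or 4.35-fold higher in WT. It did not pass edgeR's quasi-likelihood test over all genes (adjusted p = 0.986, unadjusted p = 0.00659).

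The call on Sox11 depended on the tool and the filter. DESeq2 put it past the threshold (adjusted p = 0.0337), as did edgeR on every gene with a count (adjusted p = 9.92e-05), whereas limma-voom did not (adjusted p = 0.855). DESeq2 called 0.421% and unfiltered edgeR 0.443% of the genes tested as lower in HET. The size moved less than the call: with any 1 library left out, the log2 fold change lay between -3.12 and -1.63, and without the library labelled WT 2 it was -2.01. Fibroblast markers were also lower in HET (11 of 11 below 0, where 10215 of 21607 genes were; 5 lower at an unadjusted p under 0.05, where 1.83% of all genes were; summed level 4705.0 and 5761.9 CPM against 7703.3 and 23795.3), with a median of -0.99 that was -0.23 without the library labelled WT 2. Their part in the Sox11 difference was not tested.

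Sox4 (chromosome 13, 28948919 to 28953713, minus strand), a group C factor linked to TGF-beta responses and progenitor survival, stood at 419.8 CPM for WT 1, 294.1 for the library labelled WT 2, and 200.2 (HET 1) and 296.5 (HET 2) for the HET tumours. The genotypes overlapped, because HET 2 lay just above the library labelled WT 2. Its log2 fold change was -0.52 ± 0.36 (SE) with edgeR's adjusted p = 0.986, and it stayed below 0 without each library in turn, between -0.89 and -0.24. Sox12 (chromosome 2, 152393611 to 152398063, minus strand), the weakest activator of the group, stood at 12.5, 16.1, 14.5 and 21.5 CPM in the same library order. HET 2 alone was above both WT libraries, and the log2 fold change of 0.33 ± 0.39 (SE) became -0.05 without HET 2. The ratio of Sox4 to Sox11 in CPM per kb was 9.93 for WT 1, 6.02 for the library labelled WT 2, and 12.9 (HET 1) and 54.5 (HET 2) for the HET tumours.

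The upstream sequences of these group C genes are shown as a description, and no difference in behaviour between the 3 genes was tested. RefSeq (GRCm38.p6) windows from 250 to 21 bases before the annotated start were read on the gene's strand, for Sox11 at chr12:27342739-27342968, Sox4 at chr13:28953720-28953949 and Sox12 at chr2:152398067-152398296, all minus strand. The RefSeq start of Sox11 lay 144 bases upstream of the GENCODE start given above, and the bases just after it were not found in the GENCODE transcript, whereas the RefSeq starts of Sox4 and Sox12 lay 14 and 17 bases inside the GENCODE gene; the Sox11 window is thus not placed alike. Capitals mark GGAA or its reverse complement TTCC, the core that ETS factors such as ELF5 bind.
Sox11: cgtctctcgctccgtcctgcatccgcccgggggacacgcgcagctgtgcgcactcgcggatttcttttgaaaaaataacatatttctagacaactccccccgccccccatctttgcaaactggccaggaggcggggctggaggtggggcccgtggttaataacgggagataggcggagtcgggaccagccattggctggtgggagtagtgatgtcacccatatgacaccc
Sox4: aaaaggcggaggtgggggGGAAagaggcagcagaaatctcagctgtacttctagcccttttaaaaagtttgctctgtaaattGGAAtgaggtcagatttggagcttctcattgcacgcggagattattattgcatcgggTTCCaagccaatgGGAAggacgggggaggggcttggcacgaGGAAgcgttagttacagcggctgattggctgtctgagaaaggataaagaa
Sox12: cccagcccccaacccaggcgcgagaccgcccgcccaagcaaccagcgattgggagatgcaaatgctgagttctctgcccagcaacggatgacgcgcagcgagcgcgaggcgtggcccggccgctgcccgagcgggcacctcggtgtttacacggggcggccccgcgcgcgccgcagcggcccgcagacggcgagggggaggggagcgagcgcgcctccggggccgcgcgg
The core occurred 5 times in the Sox4 window and 0 times in the Sox11 and Sox12 windows. Among 32851 promoter windows of the same length, 91.9% held it on either strand, with a median of 2 matches. The SOX-type motifs ACAAT and ACAAAG, searched on both strands, had 0 matches in all 3 windows, and 26.4% and 15.4% of all windows held them. The Sox12 window was 76.1% G or C with 35 CpG, Sox11 59.6% with 16 CpG and Sox4 49.1% with 8 CpG, against medians of 51.7% and 5. A match is a description of letters, not a bound site, and these windows do not cover distant enhancers. Promoter entries were found for 6 of the 8 members, not for Sox9 and Sox10.

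Sox10 and Sox9, the abundant group E factors, were ordered oppositely across the tumours. Sox10 (chromosome 15, 79154908 to 79165240, minus strand), the master factor of glia and melanocytes and a gene of basal-like breast tumours, stood at 236.7 CPM for WT 1, 56.4 for the library labelled WT 2, and 101.7 (HET 1) and 163.7 (HET 2) for the HET tumours. Sox9 (chromosome 11, 112782224 to 112787760, plus strand), which directs cartilage formation, stood at 277.9, 643.3, 588.0 and 337.0 CPM in the same order. Sox10 was thus highest where Sox9 was lowest, in WT 1, and lowest where Sox9 was highest, in the library labelled WT 2. The ratio of Sox9 to Sox10 in CPM per kb was 0.866 for WT 1, 8.41 for the library labelled WT 2, and 4.27 (HET 1) and 1.52 (HET 2) for the HET tumours. This order cut across genotype, with both HET libraries lying between the WT libraries for both genes.

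Neither gene separated HET from WT. The log2 fold change of Sox10 was -0.14 ± 0.66 (SE; edgeR adjusted p = 0.994) and turned to 1.23 without WT 1. It was -0.84 without the library labelled WT 2. That of Sox9 was 0.01 ± 0.51 (SE), with means of 460.6 CPM in WT and 462.5 in HET, and ranged from -0.53 without HET 1 to 0.73 without the library labelled WT 2. With errors this wide, equal levels in the genotypes were not shown.

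Sox8 (chromosome 17, 25565892 to 25570686, minus strand), a group E gene that overlaps in function with the other members of its group, was scarce and had the widest range of the 8 members. It had 174 counts for WT 1, 20 for the library labelled WT 2, and 107 (HET 1) and 260 (HET 2) for the HET tumours, or 13.8, 1.42, 6.95 and 19.3 CPM, a 13.5-fold range. It followed the same order as Sox10 except that HET 2, not WT 1, was highest. Its log2 fold change of 0.78 ± 1.02 (SE) depended on single libraries, at 3.19 without WT 1 (adjusted p = 0.0711), -0.08 without the library labelled WT 2 and -0.15 without HET 2.

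**Figure D2:**
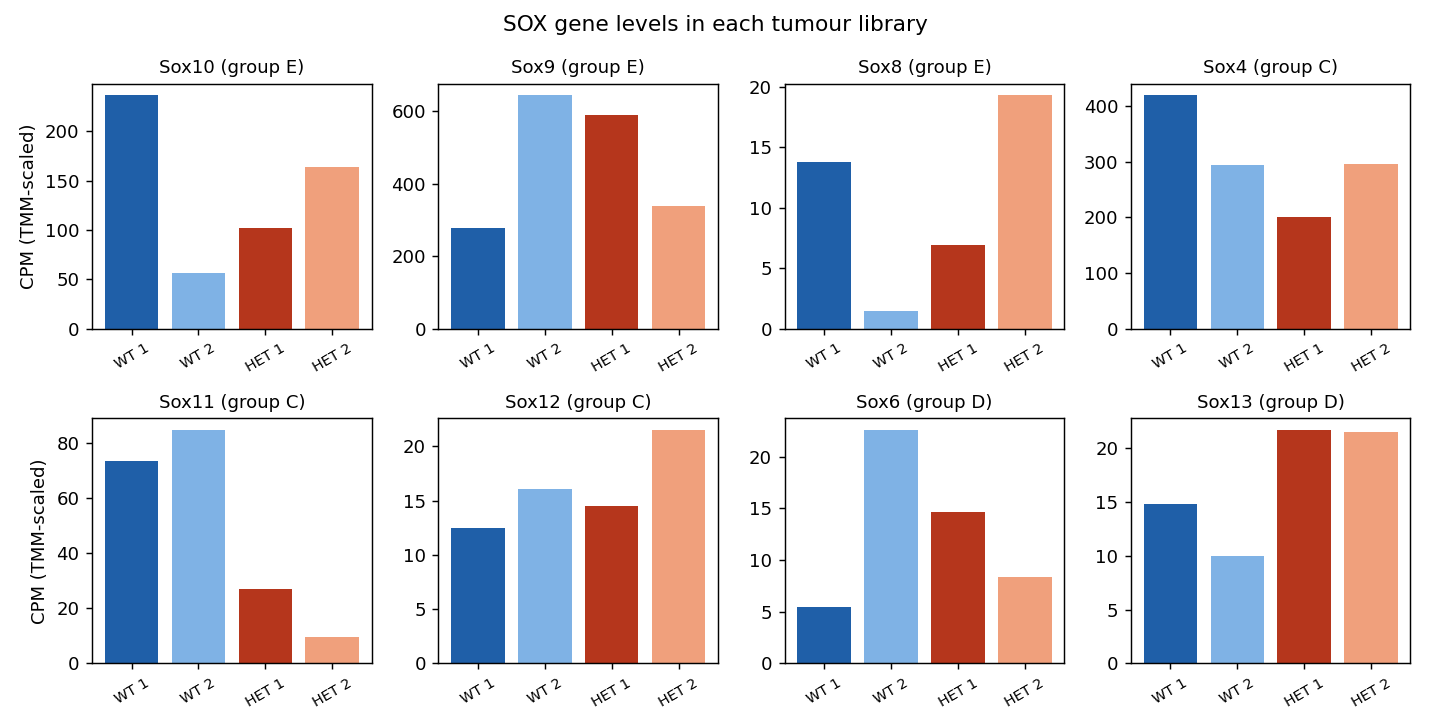
TMM-scaled CPM of the 8 SOX genes, 1 bar per library on axes that start at 0 and differ between panels; WT bars are blue and HET bars are red. Sox11 is the panel in which both HET bars (26.9 and 9.42 CPM) are below both WT bars (73.3 and 84.7), Sox13 the one in which both are above, and the Sox10 and Sox9 panels run in opposite order.

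In group D, Sox13 was the 1 member with both HET libraries above both WT libraries. Sox13 (chromosome 1, 133382303 to 133424377, minus strand), which is also known from gamma delta T cells, stood at 14.8 CPM for WT 1, 10 for the library labelled WT 2, and 21.7 (HET 1) and 21.5 (HET 2) for the HET tumours. The HET libraries were nearly equal. The log2 fold change was 0.80 ± 0.37 (SE; edgeR adjusted p = 0.986, unadjusted p = 0.0738) and stayed above 0 without each library in turn, from 0.55 to 1.11. The T cell gene Cd3e was likewise higher in both HET libraries, at 2.86, 1.07, 6.82 and 8.61 CPM in the same order. All 9 leukocyte markers tested had log2 fold changes above 0, where 11392 of 21607 genes did. Their median of 0.90 was 0.05 without the library labelled WT 2. Of these 9, 4 were higher in HET without overlap, where 19.6% of all genes were. The leukocyte list summed to 427.6, 28.1, 478.3 and 359.0 CPM in that order, so WT 1 stood above HET 2. The part of Cd3e or of leukocytes in the Sox13 result was not tested.

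Sox6 (chromosome 7, 115470872 to 116038796, minus strand), a long gene whose product has no activation domain of its own, stood at 5.41 CPM for WT 1, 22.6 for the library labelled WT 2, and 14.7 (HET 1) and 8.39 (HET 2) for the HET tumours. It ran in the same order as Sox9, and both HET libraries lay between the WT libraries. With a log2 fold change of -0.28 ± 0.71 (SE), it turned to 1.10 without the library labelled WT 2.

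Over the 8 members, 4 had fold changes above 0 and 4 below, with a median log2 fold change of -0.07 against 0.04 for all 21607 genes tested. By edgeR's quasi-likelihood test, 0 of 8 had an adjusted p under 0.05, as did 0.0% of all genes. At an unadjusted p under 0.05 there was 1 of 8, Sox11, against 3.78% of all genes in either direction and 1.83% lower in HET. The groups did not overlap for 2 of 8 members, Sox11 (lower) and Sox13 (higher), against 35.5% of all genes (15.9% lower and 19.6% higher in HET). The count without overlap was no higher than the background share, and the single unadjusted call was Sox11.

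**Figure D3:**
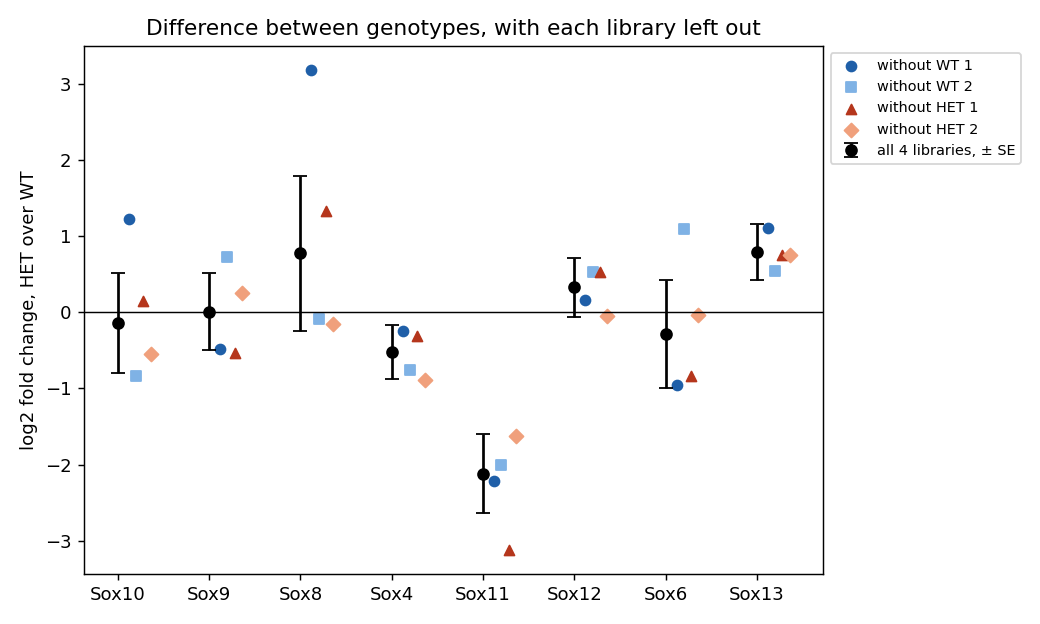
Log2 fold change of HET over WT for each SOX gene: black points with bars are the fit to all 4 libraries ± SE, and coloured points are fits with 1 library left out. Sox11 stays between -3.12 and -1.63, Sox13 and Sox4 keep their sign, and the other 5 genes have points on both sides of 0.

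Cartilage genes that SOX9 drives with its group D partners were examined as a list of 15, of which 13 could be tested. Fold changes were below 0 for 10 and above 0 for 3, with a median of -0.72, while 0 passed over all genes and 4 (3 lower and 1 higher in HET) had an unadjusted p under 0.05, against 3.78% of all genes. Col2a1, the main cartilage collagen, stood at 35.8 CPM for WT 1, 12.8 for the library labelled WT 2, and 2.01 (HET 1) and 2.45 (HET 2) for the HET tumours. Acan, the cartilage proteoglycan aggrecan, stood at 336.3, 71.2, 24.4 and 33.8 CPM in that order. Both genes were lower in each HET library than in each WT library (log2 fold changes -3.44 ± 0.62 and -2.81 ± 0.73, SE; edgeR adjusted p = 0.986 for both), while Sox9 overlapped between genotypes. Snorc, a small membrane proteoglycan of cartilage, was lower too, at -1.17 ± 0.37 (SE).

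Col9a1, a fibril-associated collagen, went the other way, with 3.82 CPM (WT 1) and 4.77 CPM (the library labelled WT 2), against 13.7 and 142.0 for HET 1 and HET 2. HET 2 was far above the rest, and the log2 fold change was 4.18 ± 1.07 (SE). The list is thus not uniform: its median was -0.35 without HET 1 and -1.33 without HET 2. Chondrocyte markers, which share members with this list, summed to 393.4 CPM for WT 1, 95.7 for the library labelled WT 2, and 30.6 (HET 1) and 53.7 (HET 2) for the HET tumours. Matn1, a defining cartilage marker, had at most 3 counts in each library.

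The list of 16 SOX10 targets of glia, pigment cells and neural crest was split, with 8 of 13 tested genes below 0 and 5 above (median -0.14, 0 passing over all genes). The median turned to 0.57 without WT 1. Ret, a receptor tyrosine kinase of enteric nerve precursors, stood at 4.14 CPM (WT 1) and 8.40 CPM (the library labelled WT 2), against 2.60 and 1.78 for HET 1 and HET 2. S100b, a calcium-binding protein of glia, had 12, 30, 3 and 5 counts. Ednrb, the endothelin receptor of neural crest, was instead higher in HET, at 10.7 and 12.9 CPM against 8.99 and 3.85. Pmp22, a myelin protein, stood at 36.9, 40.5, 29.5 and 29.5 CPM.

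Markers of cell types that carry Sox10 were mostly low. Schwann and nerve markers summed to between 39.4 and 119.9 CPM, led by Mbp (78.4 CPM in WT 1) and Ncmap (19.4 CPM there). Foxd3, a defining early crest gene, had 5 counts in WT 1 and 0 in the other libraries. Melanocyte markers summed to 14.4 to 35.4 CPM, most of it Mitf, and Tyrp1, Dct and Mlana were under 1 CPM in each library. Tyr stood at 1.83 CPM for WT 1, 0.356 for the library labelled WT 2, 1.1 for HET 1 and 2.6 for HET 2. Pmel reached 1.23 CPM in HET 1. The summed Schwann level was highest in WT 1 and lowest in the library labelled WT 2, as Sox10 was. In HET the sum was 71.7 CPM (HET 1) and 60.8 CPM (HET 2), whereas Sox10 was higher in HET 2. The part of the Schwann markers in the Sox10 level was not tested.

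Genes of neurons and progenitors that SOX4 and SOX11 switch on numbered 6, of which 3 were above 0 and 3 below (median -0.01, 0 passing). Ezh2, a Polycomb methyltransferase described as a SOX4 target, stood at 134.5 CPM (WT 1) and 166.7 CPM (the library labelled WT 2), against 124.9 and 98.2 for HET 1 and HET 2. Tubb3, the neuronal tubulin, had 31 and 18 counts in WT and 15 and 7 in HET, whereas Dcx, a neuronal microtubule protein, had 16 and 2 in WT and 36 and 75 in HET. Prox1, a homeobox factor, stayed at 2.30 CPM or below. The targets did not follow Sox11 in a common direction.

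Of 12 partner factors of group E proteins, 11 were tested, with 5 above 0 and 6 below (median -0.03, or -0.53 without HET 1, 0 passing). Snai2, which acts with SOX9 in mammary stem cells, stood at 6.68 CPM for WT 1, 27.1 for the library labelled WT 2, and 5.84 (HET 1) and 4.53 (HET 2) for the HET tumours. Pax3, a neural crest partner of SOX10, stood at 1.27, 11.8, 1.62 and 1.86 CPM. Both genes were high in the library labelled WT 2, as was Tfap2a at 138.7 CPM against 52.6 to 73.2 elsewhere. Foxc1, a factor of basal-like breast cancer, stood at 179.9, 223.3, 173.6 and 103.7 CPM.

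Among 13 genes typical of basal-like tumours, 12 were tested, 9 below 0 and 3 above (median -0.49, 0 passing; -0.30 without WT 1 and -0.20 without the library labelled WT 2). Id4, an inhibitor of bHLH factors, stood at 29.9 CPM (WT 1) and 25.1 CPM (the library labelled WT 2), against 15.4 and 17.1 for HET 1 and HET 2 (log2 fold change -0.76 ± 0.32, SE). Bcl11a, a zinc finger repressor of progenitor cells, stood at 31.7 and 21.7 CPM for WT, against 17.5 and 17.3 for HET. Luminal progenitor markers had a median of -0.07 (0.42 without WT 1), and basal and myoepithelial markers -0.53 (0.19 without the library labelled WT 2), summing to 958.1, 1343.4, 1083.5 and 494.1 CPM in the same library order. Luminal progenitor sums were 636.1, 557.9, 606.1 and 1121.8 CPM in that order, lowest in the library labelled WT 2 and then HET 1, as Sox10 was. Csn3 alone gave 519.7 CPM of the HET 2 sum. It was higher in HET 1 too, at 48.4 CPM, against 13.3 (WT 1) and 3.35 (the library labelled WT 2). Its log2 fold change was 5.10 ± 1.28 (SE), with edgeR's adjusted p = 0.986 and unadjusted p = 0.00717. The members did not share an order: Elf5 ran as Sox10 did, whereas Kit, Aldh1a3 and Lif ran in the reverse order. Kit stood at 129.5, 211.3, 169.5 and 132.6 CPM. The part of either list in the Sox10 level was not tested.

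**Figure D4:**
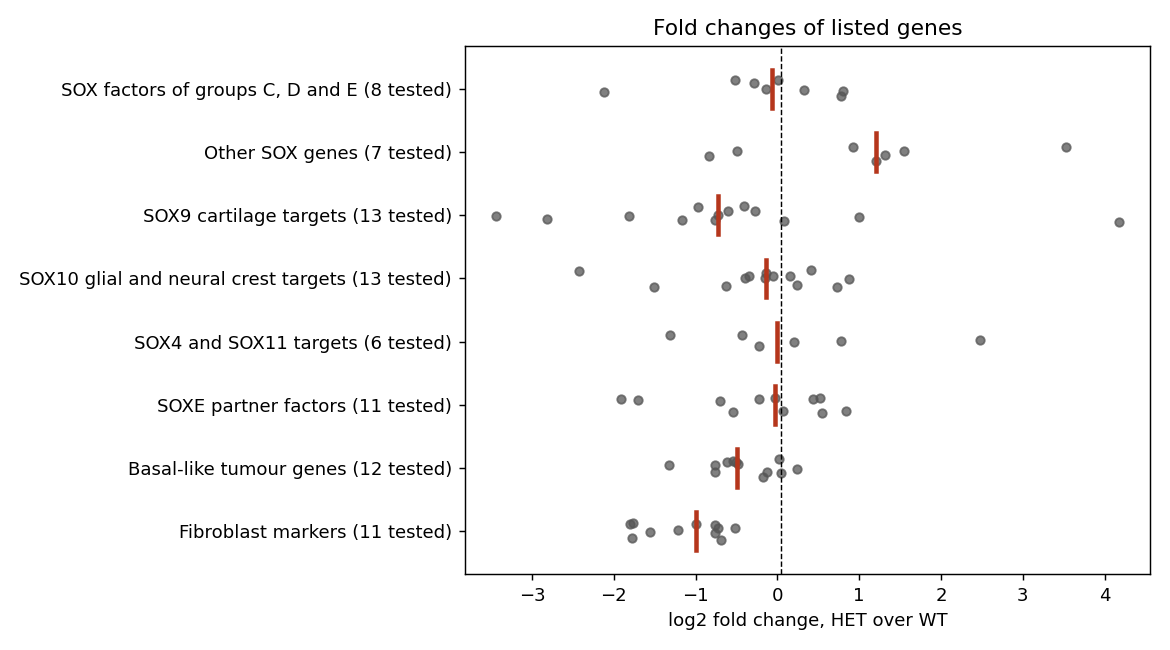
Log2 fold change of HET over WT for the tested genes of 8 lists, 1 point per gene, with red bars at list medians and a dashed line at the median of all genes (0.04). The SOX members centre on -0.07, cartilage targets spread from -3.44 to 4.18 around -0.72, and all 11 fibroblast markers lie below 0.

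Of 11 other SOX genes, 7 were tested, 5 above 0 and 2 below (median 1.20, 0 passing; 4.34 without WT 1 and 0.30 without the library labelled WT 2). Sox5, the close group D relative of Sox6, was highest in WT 1 and then HET 2, as Sox10 was, at 50.4 CPM for WT 1, 12.9 for the library labelled WT 2, and 10.1 (HET 1) and 35.0 (HET 2) for the HET tumours. Sox21, a group B repressor, stood at 14.4, 0.855, 3.38 and 5.19 CPM. Sox17 and Sox18, which group F contributes to endothelium, stood at 0 and 0.142 CPM in the library labelled WT 2 and between 1.95 and 6.01 elsewhere. Sox7, of the same group, stood at 1.71 CPM there and 5.33 to 8.76 elsewhere. Endothelial markers moved with group F, summing to 66.7 CPM in the library labelled WT 2 and 272.8 to 488.4 elsewhere; their part was not tested.

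Sox14 and Sox15 were low, with 85 and 34 counts in HET 2 and at most 17 and 13 in the other libraries. Sox1, Sox2, Sox3 and Sox30 stayed below 1 CPM in each library, and Sox2, the stem cell factor, had 4 counts in WT 1 and 0 elsewhere. A count of 0 allows up to 3 counts, or 0.195 to 0.239 TMM-scaled CPM, and these limits cover counting error only.

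The distance between the patterns of 2 genes was measured as the root mean square difference of log2 CPM over the 4 libraries, after centring each gene on its mean. Within the 8 members, Sox9 and Sox6 were the closest pair at 0.29, followed by Sox12 and Sox13 at 0.46. Sox10 was closer to Sox5 (0.49) and Elf5 (0.56) than to Sox8 (0.75), and Sox8 and Sox11 were farthest apart at 2.40.

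Nearest to Sox11 among 12861 coding genes were the histone gene Hist1h2an (0.04, in a multigene family whose counts are uncertain), Kcnf1 (0.27), a potassium channel subunit, and Mdga1 (0.32), a neuronal adhesion protein. Kcnf1 stood at 3.98 CPM (WT 1) and 6.41 CPM (the library labelled WT 2), against 1.36 and 0.297 for HET 1 and HET 2. Nearest to Sox10 were Amdhd2 (0.10), Usp17la (0.12, also of a multigene family) and Morc4 (0.13). Nearest to Sox9 were Styx and Ccdc171 (0.03 each) and Stx2 (0.05), and nearest to Sox6 were the Wnt regulator Dact1 (0.05), Id3 (0.07) and Plekha6 (0.09).

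Sox8 lay nearest to Col9a2 (0.18), a cartilage collagen gene at 58.7, 8.62, 30.8 and 103.9 CPM, then Clec4a2 (0.21) and Casc1 (0.22). Clec4a2 is a lectin of myeloid cells. Leukocyte markers were likewise lowest in the library labelled WT 2, at 28.1 CPM. Elsewhere they ran differently from Sox8, at 427.6 CPM (WT 1), 478.3 (HET 1) and 359.0 (HET 2), whereas Sox8 was higher in HET 2 than in HET 1. Their part in the Sox8 level was not tested. Sox4 lay nearest to Gtf2h5 and Nop16 (0.02 each) and Rnft2 (0.03), and Sox13 to Lmo1 (0.02), Selenop and Sytl3 (0.03 each). Likeness over 4 libraries is a description only.

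Coding genes within 1 Mb of each member were mixed around Sox11. Its 3 tested neighbours were Cmpk2 and Rsad2, which are interferon-induced antiviral genes, and Rnf144a, a ubiquitin ligase, with log2 fold changes of 1.24, 0.42 and -0.78. The 30 tested neighbours of Sox13 had a median of 0.03, and the 2 of Sox4, Cdkal1 and E2f3, stood at -0.19 and -0.35. Medians around Sox10 (50 neighbours) and Sox8 (73) were -0.28 and -0.34, against 0.04 for all genes tested and -0.04 for coding genes fitted alone. Around Sox8, 57 neighbours were lower in HET and 36 did not overlap between genotypes. Around Sox10 these counts were 32 and 18. Of all 21607 genes, coding or not, 10215 were below 0 and 35.5% did not overlap. These shares were not counted for the 15856 coding genes tested, so the neighbours are set against an unlike background. Medians around Sox9, Sox12 and Sox6 were 0.24, -0.19 and -0.05.

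Transcript sequence shared between genes was small for most members. Of the 31-base words in their annotated transcripts, 0.519% for Sox11, 0.822% for Sox10 and 1.34% for Sox9 also occurred in another gene. Sox10 and Sox9 shared 25 such words with each other. Sox8 shared 9.73%, mainly with the antisense gene 2810468N07Rik (15 to 63 counts per library), so the low counts of Sox8 are uncertain. Sox4 shared 54.7%, mainly with the opposite-strand RNA gene Gm26735, which was given 2 to 12 counts per library against 3084 or more for Sox4.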

How the data were processed

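The authors deposited estimated counts per gene for 4 libraries, for which the submitters' processing notes name Salmon and GRCm38.p5; the Salmon version, annotation and strandedness were not known from these sources. The values were whole numbers as deposited. Of 51826 identifiers, 51633 matched GENCODE M21 (GRCm38), which supplied symbols, coordinates and exon lengths. Genotypes were tested with edgeR 4.0.16 under R 4.3.3, using the quasi-likelihood test with filterByExpr and TMM (21607 genes, Benjamini-Hochberg threshold 0.05); SE is the fold change divided by the root of F. The scripts were tested on simulated data. Alternatives were RLE and upper-quartile scaling, library sizes without other cell types, other filters, coding genes alone, DESeq2 1.42.0, limma-voom (limma 3.58.1), robust edgeR, an adjusted p under 0.1 and leaving out each library. An exact permutation test of 2 against 2 libraries cannot go below p = 0.33, so none is given.

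Members and lists were chosen with earlier results of these data known. Lists are described by counts and medians. Named genes were the members, Elf5, other SOX genes with at least 1 CPM in a library, up to 4 genes of smallest p per target or partner list, the leading or defining genes of marker lists, and the 3 coding genes nearest in pattern to each member whose log2 CPM (prior count 2) averaged 1 or more with a range of 1 or more. Sox1, Sox2, Sox3, Sox30, Cd3e, Matn1, Dct, Mlana, Pmel and the chromosomal neighbours were named after their values were seen.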

Additional observations from a re-analysis of the deposited data

How the results depend on the processing

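No gene passed in the main edgeR test (0 of 21607, with 817 at an unadjusted p under 0.05), nor under RLE or upper-quartile scaling, reduced library sizes, the 1 CPM filter, coding genes alone, limma-voom, robust edgeR or an adjusted p under 0.1. Calls numbered 134 in DESeq2 and 324 in unfiltered edgeR (every gene with a count); in each, 1 SOX member passed, Sox11. Leaving out 1 library gave 0 to 657 genes (657 without WT 1, 9 without the library labelled WT 2) and 0 members. Sox9 changed sign under RLE scaling (-0.06), DESeq2 (-0.06) and no filter (-0.12), and Sox10 under limma-voom (0.16). With 1 library left out the log2 fold change ran from -0.84 to 1.23 for Sox10, -0.53 to 0.73 for Sox9, -0.15 to 3.19 for Sox8, -0.05 to 0.53 for Sox12 and -0.96 to 1.10 for Sox6; the cause was not tested. With the longest transcript in place of the exon union, which is longer for both genes, the level per length moved from 0.779 to 1.33 CPM per kb for Sox6 and from 4.21 to 4.92 for Sox13. That of Sox10 moved from 43.5 to 47.7. That of Sox8 moved from 3.33 to 3.46, which put Sox8 just above Sox12 at 3.44. Each list median was compared under each alternative, and it moved by less than the spread between replicates in 236 comparisons and by more in 37. Some alternatives, such as robust edgeR, gave nearly the same fit, so these comparisons are not independent. Where 1 library of a genotype was left, its spread was taken from the other genotype. No paired analysis was possible because the genotypes share fewer than 2 replicate numbers in the titles: the 1 ending found in both genotypes stands on both WT titles. Sox8 had 20 counts in the library with the highest total, and what limits its comparison was not tested.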
